A study of Mus musculus with 18 samples.

Results

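The tumor necrosis factor (TNF) superfamily, its ligands and their receptors, was followed through 6 groups of mouse leukemia cells and normal blood progenitors. Its members were taken by gene symbol: every symbol starting with Tnfsf or Tnfrsf, together with Tnf, Lta, Ltb, Ltbr, Fas, Fasl, Cd27, Cd40, Cd40lg, Cd70, Eda2r and Ngfr, where a probe set named that gene alone. This gave 41 of the 22180 genes with such a probe set, 15 ligands and 26 receptors, each read by a single probe set. A further 2 probe sets that name a family symbol together with another gene were left aside. Of the 41 members, 34 were tested (10 ligands and 24 receptors), because they passed a filter: a level over the 40th percentile of an array on at least 2 of the 17 arrays used. The other 7 read 1.54 to 2.40 on the log2 scale and did not pass: the ligands Fasl, Cd40lg, Cd70, Tnfsf11 (RANK ligand) and Tnfsf18 (GITR ligand), and the receptors Tnfrsf17 (BCMA) and Eda2r. Of the 34 tested members, 25 lay above it on all 17 arrays, so counts over the tested members do not speak for the whole family.

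TNF family ligands are trimeric proteins of the cell membrane, many of which can be shed, and each binds one or a few receptors. Receptors with a death domain, such as Fas and Tnfr1, can recruit FADD and caspase-8 and start apoptosis, while receptors without one bind TRAF adaptors and switch on the NF-kB and JNK pathways. Decoy receptors bind a ligand but cannot signal as the full receptors do. In marrow, TNF and Fas ligand are known to restrain or kill progenitors, and CD27 is a known surface marker of progenitor subsets.

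The cells came from 4F mice, which carry transgenes for Oct4, Sox2, Klf4 and c-Myc that doxycycline (Dox) switches on. The groups were AML cells with Dox, with compounds and as control, and LSK cells with Dox, with compounds and as control. AML denotes GFP-positive cells of acute myeloid leukemia driven by MLL-AF9, a fusion oncogene. LSK denotes normal progenitors without lineage markers and with Kit and Sca1 on their surface. The control groups carry the 4F transgenes as well, and cells without the transgenes given Dox are not among the groups used here, so an effect of Dox itself cannot be told apart from that of the factors. Treatment lasted 24 h in vitro, and the compound cocktail held VPA (an inhibitor of histone deacetylases), CHIR (of GSK3), 616452 (of the TGF-beta receptor) and TCP (of LSD1). The sources used here give neither doses nor the age of the mice. The labels give no time for the control groups, so time in culture cannot be told apart from the treatments. Each group had 3 arrays labelled as biological repeats, and no label ties them to different mice or cultures, so p-values reflect a spread among samples that may be technical.

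LSK Compound replicate 1 stood apart from every other array (r of 0.638 to 0.672 over all probe sets, against 0.979 to 0.989 within the groups of the other 17) and is left out unless stated, which leaves 2 LSK Compound arrays. Klf4 read 9.06 to 9.21 in AML Dox and 8.15 to 8.30 in LSK Dox cells, against 3.12 to 3.39 in AML Control and 3.72 to 3.95 in LSK Control cells. LSK Compound cells differed from both other LSK groups in sex-linked transcripts: the Y-linked Eif2s3y read 5.20 to 5.47 there and at most 2.64 on the other 15 arrays, and Xist read 7.32 and 7.35 in LSK Compound cells, against 9.28 to 9.77 on the other 6 LSK arrays. For LSK Compound cells, the treatment and the source of the cells therefore cannot be told apart. The AML arrays read Xist at 2.34 to 3.01, so AML and LSK cells also differed in a sex-linked transcript. In AML Compound cells Eif2s3y read 2.34 to 2.64, against 1.95 to 2.13 in AML Control cells. The Y-linked Kdm5d averaged 2.58 against 2.18 in these groups and Uty 2.35 against 1.91, near or under the filter level. The part of the source of the cells in the AML Compound values and in AML against LSK differences was not tested. Of 8 measured stem and progenitor markers, Slamf1 and Tek lay under the filter level in AML Control cells and Slamf1 in LSK Control cells. In sorted cells measured in bulk, fewer cells of a type and less RNA per cell cannot be told apart. All values below are log2 expression, all changes are differences of log2 values, and members are called at a Benjamini-Hochberg adjusted p under 0.05 from limma over 16912 genes. Counts with all 18 arrays are over 35 members tested. The share of all genes called in that fit is not given here, so those counts have no background beside them. Levels of different genes are not comparable, because each rests on its own probes. Where groups are said not to overlap, this describes the arrays of members named for large called changes. The share of all genes without overlap is not given here, so it adds no support.

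**Figure D1:**
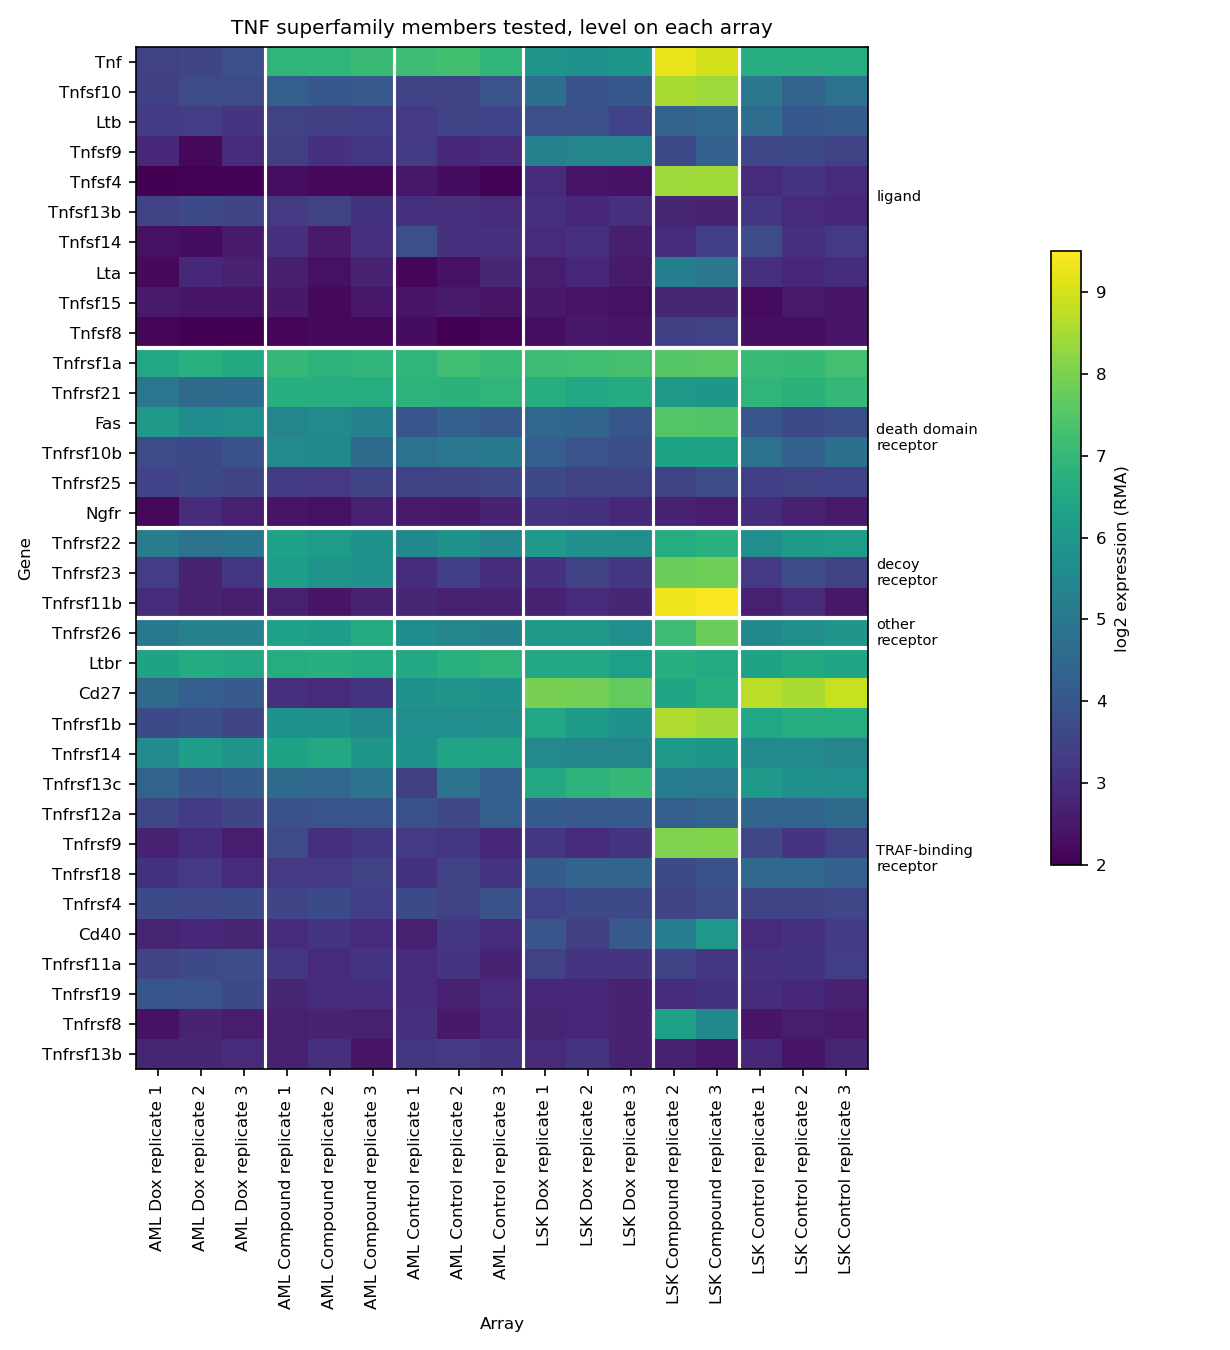
Level (log2, RMA) of the 34 tested members on each of 17 arrays, with genes in rows by class and arrays in columns by group. Along the rows of Tnfrsf11b, Tnfsf4, Tnfrsf9 and Tnfsf10 the LSK Compound columns are the brightest, and along that of Tnf the AML Dox columns are the darkest.

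In the control groups, leukemia and normal progenitors differed in 13 of the 34 members, 3 higher and 10 lower in AML Control cells. This was 38.2%, against 28.4% of all genes tested (14.7% higher and 13.6% lower). The members' median difference was -0.16 against 0.00 for all genes. Ligands made up 5 of the 10 lower members and TRAF-binding receptors the other 5. None of the 6 death domain receptors was called.

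The receptor of CD70, Cd27, showed the largest difference of the 34. It read 5.82, 5.92 and 5.80 in AML Control cells, against 8.74, 8.55 and 8.87 in LSK Control cells. Every leukemia array lay below every LSK array, and the difference was -2.88 (SE 0.13, 7.34-fold, limma adjusted p = 1.32e-11). The BAFF receptor Tnfrsf13c, a survival receptor of B cells, read 3.43, 4.81 and 4.30 in AML Control cells, against 6.02, 5.77 and 5.67 in LSK Control cells (difference -1.64, SE 0.24, limma adjusted p = 5.08e-05). Its leukemia arrays were widely spread but did not reach the LSK arrays. Tnfrsf18 (GITR), a costimulatory receptor of T cells, read 3.10, 3.49 and 3.16 in AML Control cells, against 4.46, 4.54 and 4.31 in LSK Control cells (-1.19, SE 0.12, limma adjusted p = 9.16e-07). Tnfsf10 (TRAIL), a ligand that can kill tumor cells, read 3.54, 3.48 and 3.91 in AML Control cells, against 4.98, 4.37 and 4.84 in LSK Control cells (-1.09, SE 0.19, limma adjusted p = 0.000334). The groups of neither gene overlapped.

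The other lower members were Tnfrsf1b (Tnfr2, -0.91), Ltb (lymphotoxin beta, -0.87), Tnfsf4 (OX40 ligand, -0.72), Tnfsf9 (4-1BB ligand, -0.55), Tnfrsf12a (Fn14, -0.55) and Lta (lymphotoxin alpha, -0.52). The 3 higher members were Tnfrsf14 (HVEM, 0.66), Tnfrsf13b (TACI, 0.51) and Tnf itself (0.41). The list of 8 stem and progenitor markers had a mean level of 4.14 to 4.21 in AML Control cells and 5.27 to 5.41 in LSK Control cells. Of these markers 6 were lower in AML Control cells and 1 higher, Mecom (5.30 against 4.62). Other lists differed as well. Of granule markers 4 of 9 were higher and 5 lower, and of monocyte and macrophage markers 1 of 7 higher and 5 lower. Of mast cell and basophil markers 4 of 6 were lower, and of MLL-AF9 program genes 5 of 7 were higher and 1 lower. The part of such markers in these differences was not tested. With all 18 arrays in the fit, 6 members were called, 1 higher and 5 lower.

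In leukemia cells given Dox, Tnf and several receptors were lower and Fas was higher. Of the 34 members, 14 were called, 4 higher and 10 lower in AML Dox than in AML Control cells (41.2%, against 47.0% of all genes tested, 22.3% higher and 24.7% lower). That share is near the background and lies under it. The members' median change was -0.19 against -0.01 for all genes.

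Tnf showed the largest change of the family in AML cells with Dox. It read 3.47, 3.55 and 3.83 in AML Dox cells, against 7.16, 7.22 and 6.92 in AML Control cells. The change was -3.48 (SE 0.11, an 11.2-fold lower level, limma adjusted p = 6.49e-14), and the highest Dox array lay far below the lowest control array. Of the other ligands Tnfsf13b (BAFF, 0.60) rose and Tnfsf14 (LIGHT, -0.94) fell.

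The death domain receptors moved in both directions. Fas read 6.04, 5.66 and 5.74 in AML Dox cells, against 3.94, 4.30 and 4.13 in AML Control cells, and rose on every Dox array (1.69, SE 0.14, 3.22-fold, limma adjusted p = 1.88e-08). Tnfrsf21 (DR6), a receptor best known from neurons and lymphocytes, read 4.94, 4.60 and 4.63 in AML Dox cells, against 6.83, 6.82 and 6.91 in AML Control cells (-2.13, SE 0.10, 4.38-fold lower, limma adjusted p = 4.42e-12). Tnfrsf10b, the mouse TRAIL receptor that can start apoptosis, read 3.72, 3.65 and 3.88 in AML Dox cells, against 4.80, 4.95 and 5.02 in AML Control cells (-1.17, SE 0.19, limma adjusted p = 6.25e-05). Tnfrsf1a (Tnfr1), the main death domain receptor of TNF, fell by 0.44. The groups did not overlap for Fas, Tnfrsf21 or Tnfrsf10b.

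Among the TRAF-binding receptors, Tnfrsf1b (Tnfr2), the second receptor of TNF, read 3.68, 3.80 and 3.55 in AML Dox cells, against 5.68, 5.68 and 5.70 in AML Control cells (-2.01, SE 0.14, 4.02-fold lower, limma adjusted p = 1.3e-09). Cd27 read 4.59, 4.23 and 4.14 in AML Dox cells, against 5.82, 5.92 and 5.80 in AML Control cells (-1.52, SE 0.13, limma adjusted p = 1.17e-08). Tnfrsf19 (TROY), a receptor known from epithelial and neural progenitors, read 4.01, 3.92 and 3.68 in AML Dox cells, against 2.93, 2.64 and 2.92 in AML Control cells (1.04, SE 0.11, limma adjusted p = 3.03e-07). Of these 3 receptors only Tnfrsf19 was higher in AML Dox cells. Tnfrsf11a (RANK) rose by 0.72, and Tnfrsf12a (-0.43), Tnfrsf13b (-0.36) and the decoy TRAIL receptor Tnfrsf22 (-0.64) fell.

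Tnfsf10 (-0.02), the decoy receptor Tnfrsf23 (-0.02) and Tnfrsf13c (0.03) were not called. With all 18 arrays 7 members were called, 3 higher and 4 lower, and Fas (limma adjusted p = 0.126), Cd27 (0.0859) and Tnfrsf10b (0.159) missed the threshold there. Monocyte and macrophage markers averaged 4.97 to 4.98 in AML Dox cells and 5.37 to 5.41 in AML Control cells, with 2 of 7 higher and 3 lower. Granule markers averaged 4.69 to 4.81 in AML Dox cells and 5.97 to 6.001 in AML Control cells, with 1 of 9 higher and 4 lower. Stem and progenitor markers averaged 3.29 to 3.33 in AML Dox cells and 4.14 to 4.21 in AML Control cells, with 3 of 8 higher and 3 lower. Among them Cd34 averaged 3.44 in AML Dox cells, against 8.67 in AML Control cells, and Kit 3.44 against 6.22. Mecom (5.91 against 5.30), Hlf (3.23 against 2.81) and Procr (3.46 against 3.01) went the other way. The median change of this list was 0.04. Genes of the MLL-AF9 program averaged 7.92 to 8.02 in AML Dox cells and 6.58 to 6.68 in AML Control cells, with all 7 higher. Their part in the changes was not tested.

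**Figure D2:**
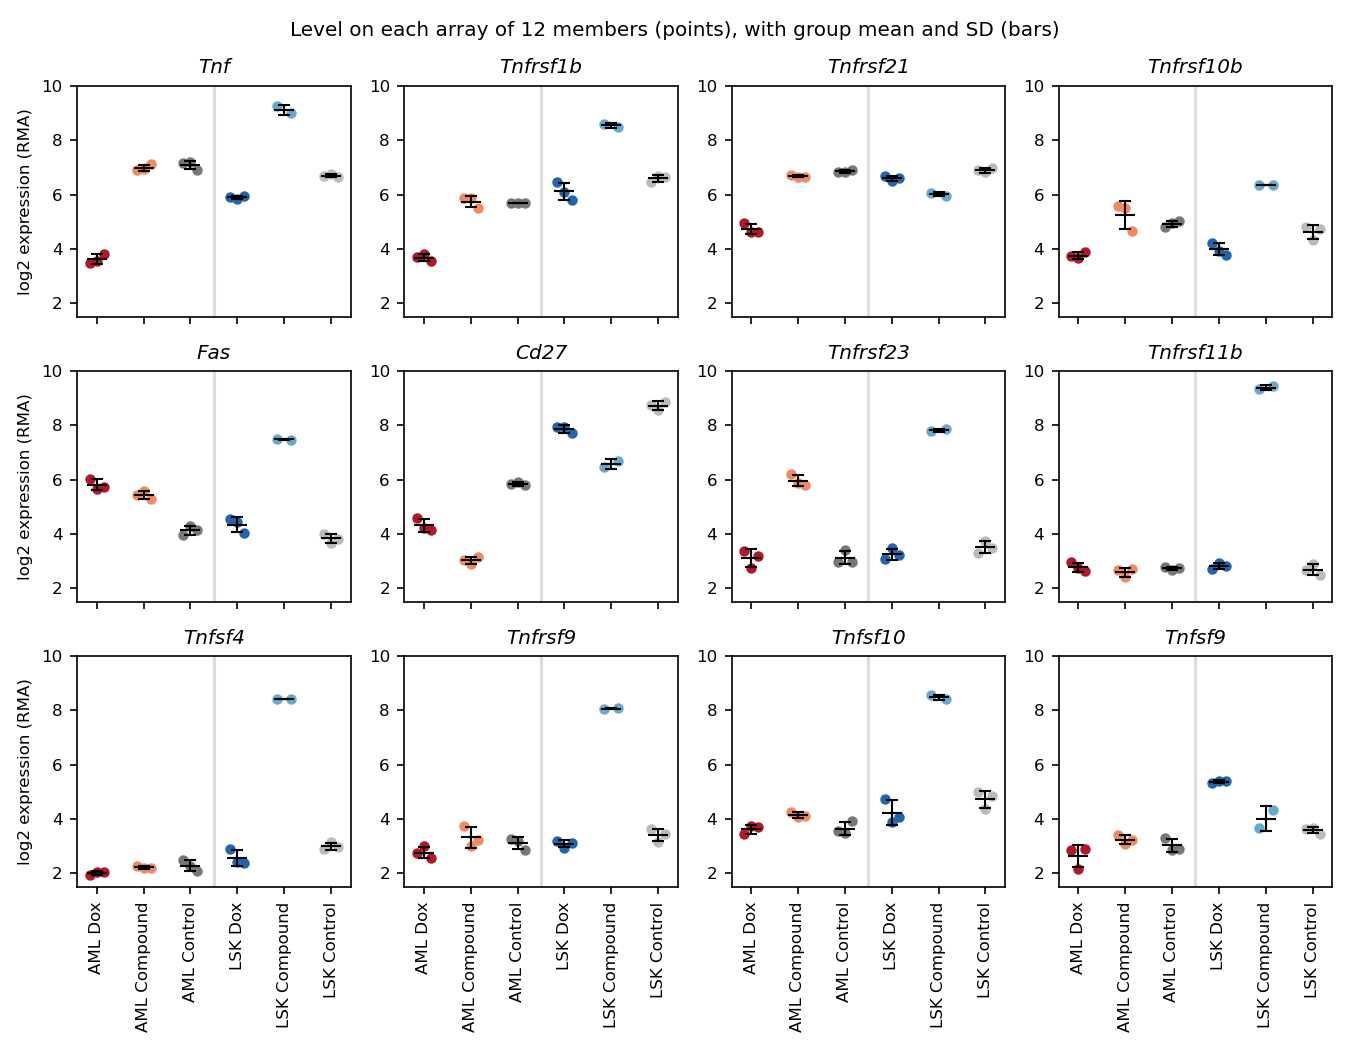
Level (log2, RMA) of 12 members on each array, with black bars for the group mean and SD, in panels of one gene each and with groups along the horizontal axis. Tnf drops to between 3.47 and 3.83 in AML Dox cells, while Tnfrsf11b, Tnfsf4, Tnfrsf9 and Tnfsf10 stand high in LSK Compound cells alone of the 6 groups.

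Fewer members were called in leukemia cells given the compounds. Of the 34, 7 were called, 5 higher and 2 lower in AML Compound than in AML Control cells. This was 20.6%, against 30.8% of all genes tested (12.3% higher and 18.5% lower). The median change was 0.06 against -0.03 for all genes. The 3 largest changes were in a decoy TRAIL receptor, Cd27 and Fas.

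The decoy TRAIL receptor Tnfrsf23 read 6.20, 5.89 and 5.80 in AML Compound cells, against 2.98, 3.39 and 2.98 in AML Control cells. Tnfrsf23 was thus higher on all 3 AML Compound arrays (2.85, SE 0.17, 7.21-fold, limma adjusted p = 1.34e-09). Its neighbours in the genome rose less, Tnfrsf26 by 0.90 and the decoy Tnfrsf22 by 0.49. Cd27 read 3.03, 2.89 and 3.15 in AML Compound cells, against 5.82, 5.92 and 5.80 in AML Control cells (-2.82, SE 0.13, 7.06-fold lower, limma adjusted p = 2.68e-11). Fas read 5.42, 5.59 and 5.28 in AML Compound cells, against 3.94, 4.30 and 4.13 in AML Control cells (1.31, SE 0.14, 2.47-fold, limma adjusted p = 2.28e-06). Tnfsf13b rose by 0.32 and Tnfrsf13b fell by 0.51.

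Tnf read 6.91, 6.94 and 7.11 in AML Compound cells, against 7.16, 7.22 and 6.92 in AML Control cells, with overlapping groups (-0.11, limma adjusted p = 0.524). Tnfrsf10b was not called either (0.32, adjusted p = 0.249), and its arrays were spread from 4.64 to 5.58 in AML Compound cells. Tnfsf10 missed the threshold with a change of 0.50 (limma adjusted p = 0.06). With all 18 arrays 2 members were called, 1 higher and 1 lower, and Fas was not among them (limma adjusted p = 0.492). Monocyte and macrophage markers averaged 7.23 to 7.47 in AML Compound cells and 5.37 to 5.41 in AML Control cells, 6 of 7 being higher and none lower. Granule markers averaged 5.20 to 5.29 in AML Compound cells and 5.97 to 6.001 in AML Control cells, with 4 of 9 lower. Stem and progenitor markers averaged 4.46 to 4.56 in AML Compound cells and 4.14 to 4.21 in AML Control cells, with 4 of 8 higher. Their part in the changes was not tested.

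In normal progenitors given Dox, 11 of the 34 members were called, 4 higher and 7 lower in LSK Dox than in LSK Control cells. This was 32.4%, against 18.3% of all genes tested (8.87% higher and 9.43% lower). The members' median change was -0.02 against -0.04 for all genes. Most changes were small, and 1 of the 11 reached 1 on the log2 scale.

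That member was Tnfsf9 (4-1BB ligand), a costimulatory ligand of antigen-presenting cells. It read 5.31, 5.41 and 5.40 in LSK Dox cells, against 3.63, 3.65 and 3.45 in LSK Control cells (1.80, SE 0.19, 3.48-fold, limma adjusted p = 2.23e-06). Both groups were tight and lay well apart. The receptors Tnfrsf13c (0.98), Cd40 (0.72) and Fas (0.50) also rose. Tnf fell by 0.78 (limma adjusted p = 6.1e-05), reading 5.92, 5.85 and 5.95 in LSK Dox cells, against 6.68, 6.75 and 6.64 in LSK Control cells. Cd27 fell by 0.85 (limma adjusted p = 9.49e-05), reading 7.95, 7.94 and 7.71 in LSK Dox cells, against 8.74, 8.55 and 8.87 in LSK Control cells. The other falls were Tnfrsf10b (-0.64), Ltb (-0.58), Tnfrsf1b (-0.48), Tnfsf4 (-0.44) and Tnfrsf21 (-0.30).

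The count rested on single arrays: it was 6 without LSK Control replicate 3, without LSK Dox replicate 2 or without LSK Dox replicate 3, and 1 with all 18 arrays, where Tnfsf9 was the member called. Granule markers averaged 6.44 to 6.48 in LSK Dox cells and 7.57 to 7.85 in LSK Control cells, with 8 of 9 lower and none higher. Mast cell and basophil markers averaged 2.84 to 2.97 in LSK Dox cells and 3.82 to 3.91 in LSK Control cells, with 4 of 6 lower: Cpa3 averaged 3.96 in LSK Dox cells, against 6.67 in LSK Control cells, and Mcpt8 3.15 against 5.84. Stem and progenitor markers averaged 5.77 to 5.81 in LSK Dox cells and 5.27 to 5.41 in LSK Control cells, with 4 of 8 higher and 2 lower. Of 7 tested T and NK cell markers 1 was called, the T cell and progenitor antigen Thy1. It averaged 8.08 in LSK Dox cells, against 4.46 in LSK Control cells. The median change of that list was -0.07. The part of all these markers in the changes was not tested.

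The widest response of the family was in normal progenitors given the compounds, where ligands, death domain receptors and decoys all held more higher than lower members. Of the 34 members 21 were called, 18 higher and 3 lower in LSK Compound than in LSK Control cells (61.8%, against 33.2% of all genes tested; 52.9% higher, against 13.9% of all genes, and 8.82% lower, against 19.3%). The median change was 0.42 for the members and -0.05 for all genes. The higher members were 6 of 10 ligands, 3 of 6 death domain receptors, all 3 decoys, 5 of 14 TRAF-binding receptors and Tnfrsf26, a receptor encoded beside the decoys.

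The largest rise was in a decoy. Tnfrsf11b (osteoprotegerin), a secreted decoy of RANK ligand and TRAIL, read 9.32 and 9.46 in LSK Compound cells, against 2.67, 2.88 and 2.49 in LSK Control cells. The change was 6.71 (SE 0.13, 105-fold, limma adjusted p = 8.98e-16), while the other 4 groups read between 2.39 and 2.95. Its control level lay at the median of the arrays (2.65 to 2.75), where genes that a cell does not use also read, so the fold is no more than a lower bound. Tnfrsf23 read 7.78 and 7.85 in LSK Compound cells, against 3.28, 3.73 and 3.49 in LSK Control cells (4.32, SE 0.19, 19.9-fold, limma adjusted p = 1.22e-11). Tnfrsf22 rose by 0.75 and Tnfrsf26 by 1.77.

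Among the ligands, Tnfsf4 (OX40 ligand), which costimulates T cells, read 8.41 and 8.42 in LSK Compound cells, against 2.88, 3.14 and 2.96 in LSK Control cells (5.42, SE 0.14, 42.8-fold, limma adjusted p = 1.96e-14). Tnfsf10 (TRAIL) read 8.55 and 8.40 in LSK Compound cells, against 4.98, 4.37 and 4.84 in LSK Control cells (3.75, SE 0.22, 13.4-fold, limma adjusted p = 3.5e-10). Neither ligand had an LSK Compound array near an LSK Control array. Tnf read 9.26 and 9.003 in LSK Compound cells, against 6.68, 6.75 and 6.64 in LSK Control cells (2.44, limma adjusted p = 5.88e-11). Lta read 5.22 and 4.98 in LSK Compound cells, against 3.003, 2.85 and 2.99 in LSK Control cells (2.16, limma adjusted p = 1.49e-07). Tnfsf8 (CD30 ligand) rose by 1.12 and Tnfsf15 (TL1A) by 0.40, both from control levels near the filter.

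Of the death domain receptors, Fas read 7.495 and 7.459 in LSK Compound cells, against 4.01, 3.68 and 3.81 in LSK Control cells (3.64, SE 0.16, 12.5-fold, limma adjusted p = 1.11e-11). Tnfrsf10b rose by 1.72 and Tnfrsf1a by 0.41, and Tnfrsf21 fell by 0.89. Fas and Tnfrsf21 therefore moved in opposite directions in these cells too.

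Of the TRAF-binding receptors, Tnfrsf9 (4-1BB), a costimulatory receptor induced on activated T cells, read 8.04 and 8.07 in LSK Compound cells, against 3.61, 3.16 and 3.46 in LSK Control cells (4.65, SE 0.19, 25.1-fold, limma adjusted p = 5.03e-12). Tnfrsf8 (CD30), another marker of activated lymphocytes, read 6.29 and 5.51 in LSK Compound cells, against 2.45, 2.56 and 2.55 in LSK Control cells (3.38, SE 0.18, 10.4-fold, limma adjusted p = 1.42e-10). Its control level was under the array median, so this fold too is a lower bound. Cd40, the receptor of CD40 ligand on antigen-presenting cells, read 5.22 and 6.01 in LSK Compound cells, against 2.90, 3.07 and 3.35 in LSK Control cells (2.51, SE 0.22, 5.7-fold, limma adjusted p = 8.42e-08). The 2 LSK Compound arrays lay further apart for Tnfrsf8 and Cd40 than for Tnfrsf9, and both lay above every control array. Tnfrsf1b rose by 1.95 and Tnfrsf14 by 0.48.

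Cd27 fell here as under the other treatments, reading 6.45 and 6.69 in LSK Compound cells, against 8.74, 8.55 and 8.87 in LSK Control cells (-2.15, limma adjusted p = 1.72e-09). Tnfrsf18 fell by 0.67. Several partners of members that rose were not called: Tnfrsf4 (OX40, 0.07), Tnfrsf25 (DR3, 0.17), Tnfsf9 (0.42), Ltb (0.16) and Ltbr (0.21).

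With LSK Compound replicate 1 in the fit, 13 members were called, 10 higher and 3 lower, and the changes of the 8 members given with SE in these paragraphs ranged from 2.13 to 4.84 rather than from 2.51 to 6.71; Tnfsf10 then missed the threshold (limma adjusted p = 0.103). Markers of other cells moved in the same arrays. Granule markers averaged 4.49 to 4.61 in LSK Compound cells and 7.57 to 7.85 in LSK Control cells, with all 9 lower. Monocyte and macrophage markers averaged 7.02 to 7.21 in LSK Compound cells and 6.11 to 6.21 in LSK Control cells, with 3 of 7 higher and 2 lower. Cd14 read 9.66 to 9.71 in LSK Compound cells, against 4.53 to 5.23 in LSK Control cells, and Adgre1 8.53 to 8.86 against 4.22 to 4.70. Others of this list went the other way: Ccr2 averaged 4.24 against 6.16, Csf1r 5.35 against 5.81 and Cx3cr1 4.29 against 4.83. The median change of the list was -0.0066. Dendritic cell markers averaged 4.58 to 4.77 in LSK Compound cells and 4.26 to 4.39 in LSK Control cells, with 2 of 6 higher and 1 lower. Among them Ccr7 averaged 7.28 in LSK Compound cells, against 4.55 in LSK Control cells, and H2-Ab1 10.13 against 7.93. Flt3 went the other way, with 5.57 against 7.38. Of mast cell and basophil markers 2 of 6 were higher and 2 lower, of B cell markers 2 of 5 higher and 1 lower, and of stromal and endothelial markers 2 of 7 higher. T and NK cell markers averaged 2.41 to 2.43 in LSK Compound cells and 2.503 to 2.579 in LSK Control cells, and 0 of 7 tested were called. Cd3d, Cd3g and Cd8a lay under the filter level in LSK Compound cells. The part of any of these cell types in the rises was not tested.

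**Figure D3:**
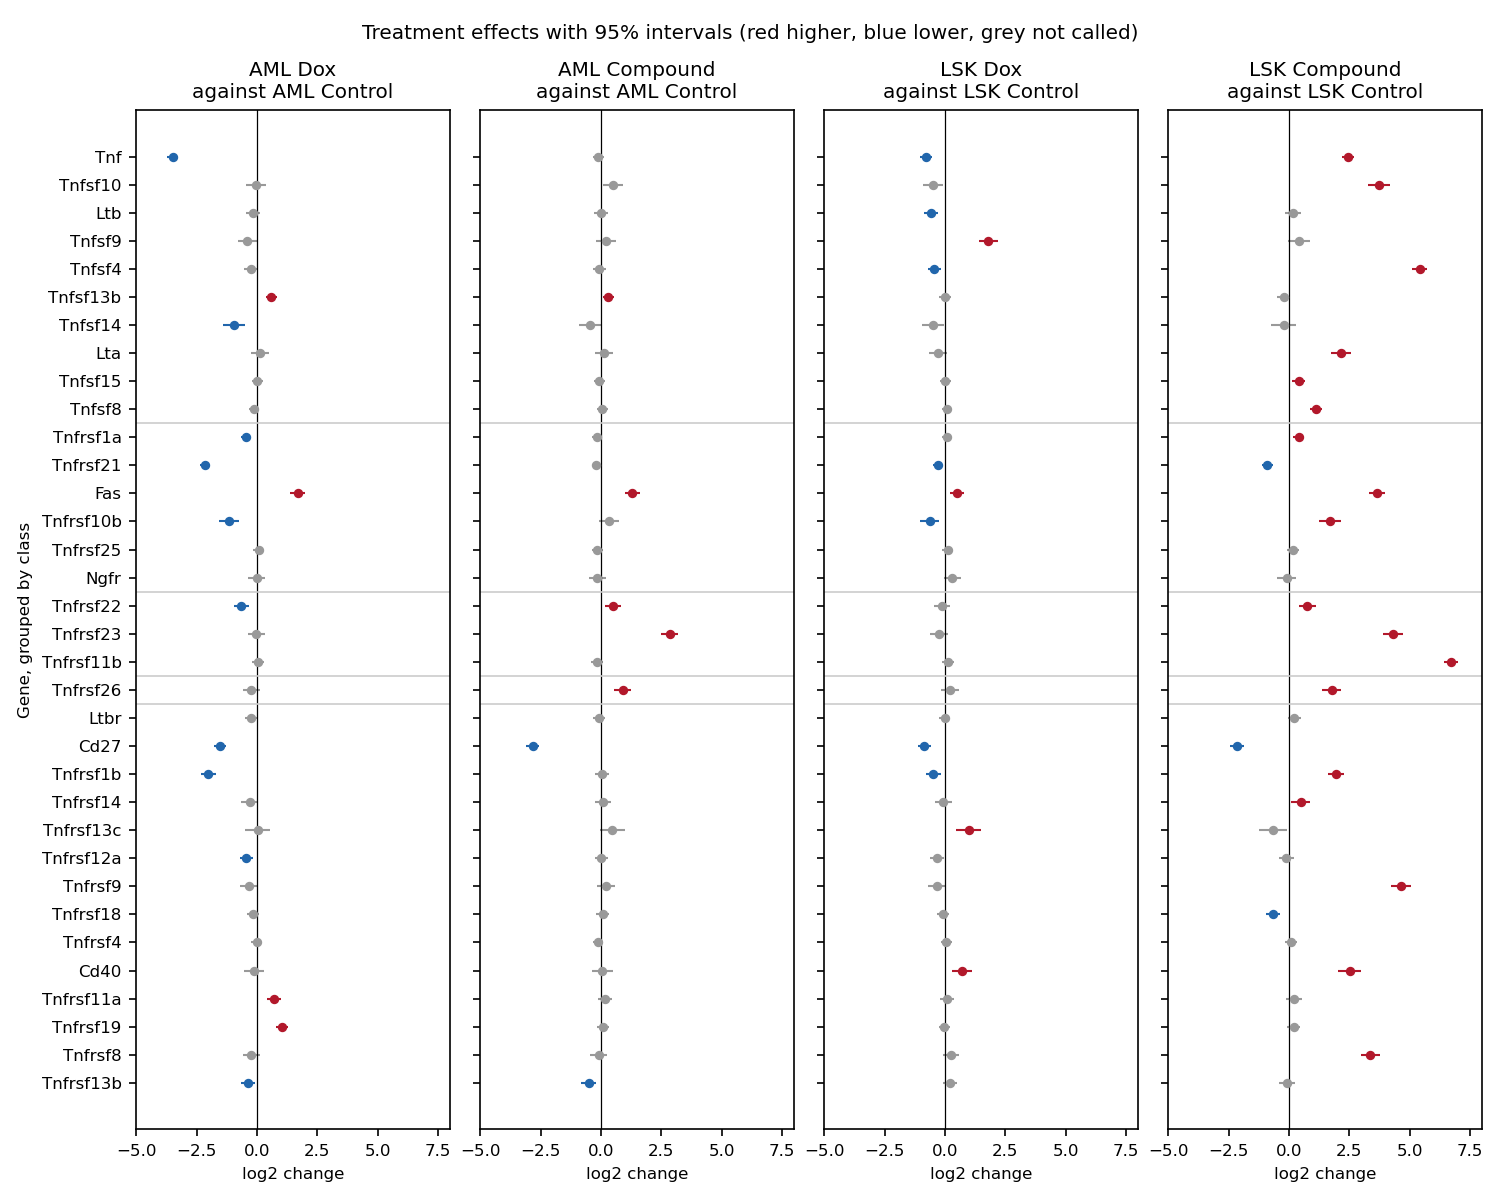
Log2 change of the 34 tested members with its 95% interval (horizontal axis) in the 4 treatments against their controls, with genes by class in rows. Red marks members called higher, blue called lower and grey not called, and the LSK Compound panel holds 18 red points and 3 blue ones.

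Promoter sequences are shown for 4 receptors with rises of more than 2 in LSK Compound cells, since several family genes are textbook targets of NF-kB and AP-1. Of the 10 members that rose by 2 or more there, 7 had an entry in the RefSeq promoter table (GRCm38.p6), and 32 of the 41 members in all. Tnfrsf11b and Tnfsf4, which rose most, and Cd40 had no entry, so their promoters were not searched. The 250 bases before the transcription start are given 5′ to 3′ on the gene's strand, with matches to the kappaB consensus and to the AP-1 motif TGANTCA, searched on both strands, in capitals. The windows are chr4:150927749-150927998 (plus strand) for Tnfrsf9, chr4:145315165-145315414 (minus strand) for Tnfrsf8, chr19:34290409-34290658 (plus strand) for Fas and chr7:143685876-143686125 (minus strand) for Tnfrsf23.
Tnfrsf9: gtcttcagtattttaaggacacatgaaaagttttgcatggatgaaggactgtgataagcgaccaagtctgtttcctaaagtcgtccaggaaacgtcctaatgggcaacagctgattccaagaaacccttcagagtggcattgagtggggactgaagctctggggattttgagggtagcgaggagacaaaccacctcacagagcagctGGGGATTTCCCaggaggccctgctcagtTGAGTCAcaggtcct
Tnfrsf8: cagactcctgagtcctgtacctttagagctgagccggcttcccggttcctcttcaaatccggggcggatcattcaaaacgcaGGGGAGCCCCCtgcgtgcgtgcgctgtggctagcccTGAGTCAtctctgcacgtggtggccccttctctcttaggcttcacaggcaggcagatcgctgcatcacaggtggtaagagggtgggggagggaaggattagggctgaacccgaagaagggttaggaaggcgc
Fas: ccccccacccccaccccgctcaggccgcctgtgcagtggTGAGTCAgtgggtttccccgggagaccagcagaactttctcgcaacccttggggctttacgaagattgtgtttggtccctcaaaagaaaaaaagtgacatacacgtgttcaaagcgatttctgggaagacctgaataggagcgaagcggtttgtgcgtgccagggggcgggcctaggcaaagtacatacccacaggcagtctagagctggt
Tnfrsf23: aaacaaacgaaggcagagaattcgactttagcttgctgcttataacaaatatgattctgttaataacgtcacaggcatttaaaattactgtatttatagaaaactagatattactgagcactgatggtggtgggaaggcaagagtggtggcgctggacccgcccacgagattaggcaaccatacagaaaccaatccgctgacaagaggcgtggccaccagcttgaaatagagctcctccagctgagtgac

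The Tnfrsf9 window holds overlapping kappaB matches 43 and 42 bases before the start, and an AP-1 match 15 bases before it. A second Tnfrsf9 window in the table holds neither. The Tnfrsf8 window holds overlapping kappaB matches 168 and 167 bases before the start and an AP-1 match at 132. The Fas window holds an AP-1 match at 211, and the Tnfrsf23 window holds neither motif. Tnf, Lta and Tnfsf10 also rose by more than 2 in LSK Compound cells, and their windows, not shown, hold neither motif. No kappaB match overlaps an AP-1 match in any member's window.

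Of 32851 windows in the table, 7.25% held a kappaB match and 6.75% an AP-1 match. A member was counted if any of its windows matched, so member counts and window shares are not in the same unit. Tnfrsf25 and Tnfsf13b, like Tnfrsf9, also have a window that holds neither motif. Among the 12 members in the table that were higher in LSK Compound cells, 2 had a kappaB match (Tnfrsf8 and Tnfrsf9) and 3 an AP-1 match (those and Fas). Among the other 20 members in the table, 2 had a kappaB match, Ltb and Tnfrsf25, neither of which was called in LSK Compound cells. Another 2 of these 20 had an AP-1 match, Tnfsf13b and Tnfsf14, and neither of them was called there. These matches are letters in a window and do not show binding.

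The 2 cell types answered Dox differently in 13 of the 34 members (38.2%, against 38.8% of all genes tested), a share at the background. The difference between the responses, AML minus LSK, was negative in 9 and positive in 4 (20.7% of all genes were negative). Tnf fell in both cell types, and the difference between the falls was -2.70 (SE 0.16, limma adjusted p = 4.47e-10). Tnfsf9 rose in LSK cells and had a change of -0.39 in AML cells that was not called (difference -2.19, SE 0.27, limma adjusted p = 3.24e-06). Tnfrsf21 (-1.83), Tnfrsf1b (-1.53), Fas (1.19) and Tnfrsf19 (1.06) made up the other differences of 1 or more. Over all 18 arrays 3 members differed, and Tnf (limma adjusted p = 0.0904), Tnfrsf1b (0.394) and Fas (0.668) missed the threshold.

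For the compounds, 20 of 34 members differed between the cell types (58.8%, against 16.6% of all genes tested), 16 with the lower response in AML cells and 4 with the higher (8.24% and 8.37% of all genes). The median difference was -0.45 for the members and 0.02 for all genes. Tnfrsf11b differed most (-6.86, SE 0.18, limma adjusted p = 2.46e-13): it read 2.67, 2.39 and 2.70 in AML Compound cells, against 2.79, 2.67 and 2.74 in AML Control cells. Tnfsf4 (-5.48), Tnfrsf9 (-4.43), Tnfrsf8 (-3.48), Tnfsf10 (-3.24), Tnf (-2.55), Cd40 (-2.45) and Fas (-2.34) followed.

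Some of these members were higher under the compounds in both cell types, to unequal extents. Fas and Tnfrsf23 rose in both, and the response in AML cells was lower by 2.34 for Fas and by 1.47 for Tnfrsf23. Tnfrsf21 differed in the other direction (0.71), with a fall in LSK cells and a change of -0.18 in AML cells that was not called. With all 18 arrays 3 of 35 members tested differed, all 3 with the lower response in AML cells. The share of all genes in that fit is not given here. Of the 8 largest differences Cd40 was then called (-2.16), and the other 7 missed the threshold. These were Tnfrsf11b (-4.99, limma adjusted p = 0.0715), Tnfsf4 (-3.54), Tnfrsf9 (-3.01), Tnfrsf8 (-2.57), Tnfsf10 (-1.63), Tnf (-1.26) and Fas (-0.95, limma adjusted p = 0.632). Every value for the LSK Compound group shares the 2 arrays with Y-linked signal described above.

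**Figure D4:**
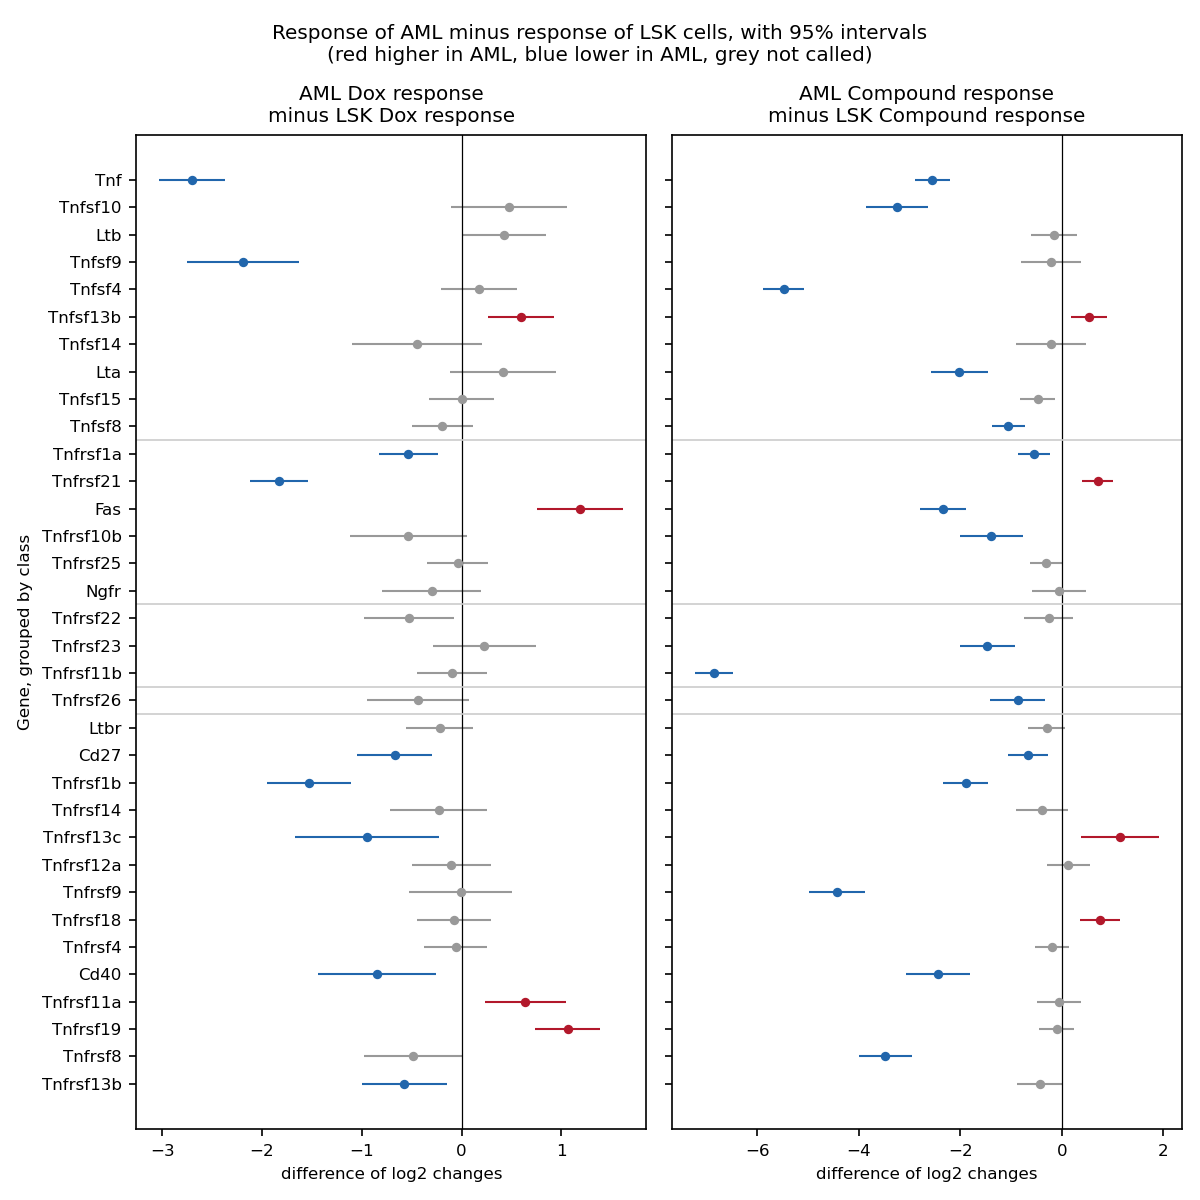
Response of AML cells minus response of LSK cells (difference of log2 changes, horizontal axis, with 95% intervals) for the 34 tested members in rows, under Dox and under the compounds. Red marks 4 members in each panel with the higher response in AML cells and blue those with the lower, 9 under Dox and 16 under the compounds.

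Set against each other, Dox and the compounds left leukemia cells different in 17 of the 34 members (50.0%, against 46.2% of all genes tested), 5 higher and 12 lower in AML Dox than in AML Compound cells (22.4% and 23.8% of all genes). The share is near the background. Tnf was the largest difference (-3.37, limma adjusted p = 1.1e-13), followed by Tnfrsf23 (-2.87), Tnfrsf1b (-2.06), Tnfrsf21 (-1.95) and Tnfrsf10b (-1.49). Cd27 (1.30), Tnfrsf19 (0.95), Tnfrsf11a (0.57), Fas (0.38, limma adjusted p = 0.0388) and Tnfsf13b (0.28, limma adjusted p = 0.0462) were higher with Dox. The count was 11 without AML Compound replicate 1, and 8 with all 18 arrays.

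In LSK cells 24 of 34 members differed between the treatments (70.6%, against 31.4% of all genes tested), 5 higher and 19 lower in LSK Dox than in LSK Compound cells (17.3% and 14.1% of all genes). The lower ones were led by Tnfrsf11b (-6.58), Tnfsf4 (-5.86), Tnfrsf9 (-4.98), Tnfrsf23 (-4.57) and Tnfsf10 (-4.24). The higher ones were Tnfrsf13c (1.65), Tnfsf9 (1.37), Cd27 (1.29), Tnfrsf18 (0.59) and Tnfrsf21 (0.59). Tnfsf9 read 5.31, 5.41 and 5.40 in LSK Dox cells and 3.67 and 4.33 in LSK Compound cells, so the 2 groups did not overlap. Over all 18 arrays Cd27 moved to 2.42 and Tnfrsf21 to 0.91, Tnfsf4 to -3.91 and Tnfsf10 to -2.63, and Tnfsf10 then missed the threshold (limma adjusted p = 0.0543). The comparisons of a cell type share arrays, as both treatments are read against the same controls.

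Other genes of the pathway came from 4 lists: adaptors and the death complex, kinases and feedback genes of NF-kB, proteins that shed or cleave family members, and family genes outside the symbol rule. For each count, the shares of all genes tested stand in brackets. Among 18 measured adaptors and death complex genes, 4 were higher and 9 lower in AML Dox than in AML Control cells (22.3% and 24.7% of all genes), so the higher count is at the background. Their median change was -0.29, against -0.01 for all genes. Siva1, which binds CD27, fell by 1.97 and Mlkl, which executes necroptosis, by 1.92, while Madd, an adaptor of Tnfr1, rose by 1.73 and Traf6 by 0.89. In AML Compound cells 2 were higher and 8 lower (12.3% and 18.5% of all genes), with a median of -0.15 against -0.03 for all genes. The falls there included Fadd (-0.80), the bridge from death domains to caspase-8, Traf4 (-0.68), Traf2 (-0.66) and Cflar (-0.39), an inhibitor of caspase-8. In LSK Dox cells 4 were higher and 1 lower (8.87% and 9.43% of all genes), with Traf1 at 0.92, Traf5 at 0.79, Ripk3 at 0.43 and Siva1 at -0.47. In LSK Compound cells 8 were higher and 3 lower (13.9% and 19.3% of all genes), with a median of 0.21 against -0.05 for all genes. Traf1, a TRAF protein that NF-kB induces, rose by 4.40 (SE 0.22, limma adjusted p = 6.49e-11). Cflar (1.46) and Mlkl (1.17) rose with it, and Siva1 fell by 0.76.

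Of 19 measured kinases and feedback genes of the NF-kB branches, 10 were higher and 2 lower in AML Dox than in AML Control cells (22.3% and 24.7% of all genes), with a median of 0.36 against -0.01 for all genes. Tab3, a partner of the kinase TAK1, rose by 2.33, Nfkbia, the inhibitor of NF-kB that is also its target, by 1.79, and the ubiquitin ligases Birc3 and Birc2 by 1.49 and 1.42. In AML Compound cells 3 were higher and 4 lower (12.3% and 18.5% of all genes), with Nfkbia at 0.79, Tnip1 at -0.72, Rela at -0.42 and Tab2 at -0.40. In LSK Dox cells 4 were higher and 1 lower (8.87% and 9.43% of all genes), with Nfkbia at 0.74, Ikbkg at 0.53, Birc3 at 0.48 and Birc2 at 0.42. In LSK Compound cells 10 were higher and 0 lower (13.9% and 19.3% of all genes), with a median of 0.58 against -0.05 for all genes. Tnfaip3 (A20), which ends TNF signalling, rose by 3.55, Nfkbia by 2.62, Nfkbie by 2.37 and Birc3 by 1.78. Nfkbia and Birc3 were called higher in each of the 4 treatments, Birc3 by 0.39 in AML Compound cells.

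Of 8 genes that shed or cleave family proteins, 4 were higher and 1 lower in AML Dox, AML Compound and LSK Dox cells each (among all genes 22.3%, 12.3% and 8.87% were higher and 24.7%, 18.5% and 9.43% lower). In LSK Compound cells 5 were higher and 2 lower (13.9% and 19.3% of all genes). Their median change was 0.24 in AML Dox cells (-0.01 for all genes), 0.27 in AML Compound cells (-0.03), 0.30 in LSK Dox cells (-0.04) and 0.54 in LSK Compound cells (-0.05). Furin, a protease that activates the shedding enzymes, rose in all 4 treatments, by 0.51 in AML Dox, 0.99 in AML Compound, 0.44 in LSK Dox and 1.66 in LSK Compound cells. Rhbdf2, which brings the TNF-releasing protease Adam17 to the surface, fell by 1.61 in AML Dox cells and rose by 0.46 in AML Compound and 1.33 in LSK Compound cells. Adam17 itself rose by 0.46 in AML Compound and 0.48 in LSK Compound cells. Adam10 rose by 0.75 in AML Dox and fell by 0.32 in AML Compound and by 0.82 in LSK Compound cells. Sppl2a rose in all 4 treatments, by 0.39 in AML Dox, 0.62 in AML Compound, 0.44 in LSK Dox and 1.28 in LSK Compound cells. Sppl2b rose by 0.79 in AML Dox cells and fell by 0.55 in LSK Dox and by 0.51 in LSK Compound cells. Timp3, an inhibitor of Adam17, rose by 1.71 in LSK Dox and 0.59 in LSK Compound cells, and Rhbdf1 by 0.71 in LSK Dox cells. Of 4 family genes outside the symbol rule, Eda rose by 1.87 in AML Dox cells, and Relt fell by 1.23 in AML Dox, 0.40 in AML Compound and 0.54 in LSK Compound cells.

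Members that lie side by side in the genome did not always move together. In the RefSeq gene order (GRCm38.p6), 21 of the 41 members fall into 8 clusters of genes at most 2 places apart. On chromosome 17, Tnf (2.44) and Lta (2.16) rose in LSK Compound cells and Ltb (0.16), their other neighbour, was not called. In AML Dox cells Tnf fell by 3.48, and neither Lta (0.14) nor Ltb (-0.16) was called. On chromosome 7 the cluster of Tnfrsf26, Tnfrsf22 and Tnfrsf23 rose as a whole under the compounds in both cell types, by 0.90, 0.49 and 2.85 in AML Compound cells and by 1.77, 0.75 and 4.32 in LSK Compound cells. On chromosome 4, Tnfrsf8 (3.38) and Tnfrsf1b (1.95) both rose in LSK Compound cells. On chromosome 6, Cd27 fell in all 4 treatments, while of its neighbours in LSK Compound cells Tnfrsf1a rose by 0.41 and Ltbr (0.21) was not called.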

How the data were processed

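RNA of 18 samples in 6 title groups of 3 was read on 1-colour whole-transcript arrays. The values are log2 expression made by the authors with RMA, per the submitters' processing notes. The sources used here give no RMA version or build, nor whether values were centred. No further scaling was applied, and the number of arrays limits the precision. The table held 41345 probe sets: 23521 of 1 gene, 1814 of several and 16010 not listed. The probe set with the highest mean was kept for each gene. The 16912 genes above the 40th percentile of an array (2.32 to 2.41) on at least 2 of 17 arrays were fitted with limma 3.58.1 in R 4.3.3 (lmFit, 1 mean per group, 9 contrasts, eBayes). The fit had 11 residual degrees of freedom, a prior of 5.34 and a median SE of 0.12 for AML treatments and 0.14 for LSK Compound. The script was tested on simulated data. Members and lists were chosen with earlier results of these data known. Called members with a change of at least 1 are named with every array (up to 8 a comparison; of Dox against Compound, the 5 largest each way), other called members by their change, and from each pathway list up to 4 called genes with the smallest p. Other members and list genes named as not called, and the marker genes named, were picked with their values in view. The 10 alternatives included all 18 arrays, the replicate block, each array left out, other scalings, filters and the mean of a gene's probe sets. A probe set naming several genes was not used.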

Additional observations from a re-analysis of the deposited data

Results flagged for a closer look

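The change under a treatment differed between AML and LSK cells, by a limma contrast of the 2 responses with an adjusted p under 0.05, for 20 members under the compounds and 13 under Dox. The values are the response of AML cells minus that of LSK cells on the log2 scale, with 2 LSK Compound arrays and 3 in every other group. Under the compounds the response was lower in AML cells for Tnfrsf11b (-6.86), Tnfsf4 (-5.48), Tnfrsf9 (-4.43), Tnfrsf8 (-3.48), Tnfsf10 (-3.24), Tnf (-2.55), Cd40 (-2.45), Fas (-2.34), Lta (-2.03), Tnfrsf1b (-1.89), Tnfrsf23 (-1.47), Tnfrsf10b (-1.39), Tnfsf8 (-1.06), Tnfrsf26 (-0.87), Cd27 (-0.67) and Tnfrsf1a (-0.55). It was higher in AML cells for Tnfrsf13c (1.14), Tnfrsf18 (0.75), Tnfrsf21 (0.71) and Tnfsf13b (0.53). Their adjusted p ran from 2.46e-13 (Tnfrsf11b) to 0.0397 (Tnfrsf13c), by limma.

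Under Dox the response was lower in AML cells for Tnf (-2.70), Tnfsf9 (-2.19), Tnfrsf21 (-1.83), Tnfrsf1b (-1.53), Tnfrsf13c (-0.95), Cd40 (-0.84), Cd27 (-0.67), Tnfrsf13b (-0.57) and Tnfrsf1a (-0.53). It was higher in AML cells for Fas (1.19), Tnfrsf19 (1.06), Tnfrsf11a (0.64) and Tnfsf13b (0.59). Their adjusted p ran from 4.47e-10 (Tnf) to 0.0365 (Tnfrsf13c), by limma. Under the compounds Tnfrsf13c differed as a change of 0.47 in AML cells and -0.67 in LSK cells, neither of which was called. Cd27 fell in both cell types under both treatments, and further in AML cells each time.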

How the results depend on the processing

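Members called depended most on LSK Compound replicate 1, which widens the spread shared by all comparisons. With it in the fit 35 members were tested, and the share of all genes called is not given here. With all 18 arrays the counts were 7 for AML Dox against AML Control, 2 for AML Compound against AML Control, 1 for LSK Dox against LSK Control and 13 for LSK Compound against LSK Control. They were 6 for AML Control against LSK Control, 3 for the difference between the Dox responses, 3 for that between the compound responses, 8 for AML Dox against AML Compound and 16 for LSK Dox against LSK Compound. Leaving out each array in turn gave, in the same order, 13 to 15, 5 to 8, 6 to 12, 18 to 22, 10 to 14, 11 to 15, 15 to 20, 11 to 19 and 20 to 24.

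With the replicate number as a block the counts were 14, 7, 11, 20, 13, 13, 19, 19 and 23. Same-numbered arrays did not deviate together (r of -0.11 to 0.10 over 40 pairs, median -0.00311). With so few arrays in a group, this cannot show whether they share a mouse or culture. Groups compared alone, median centring, quantile normalization, no filter, the 60th percentile filter, low values set to the filter level and the mean of probe sets left every count within 1.5 times.

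The 57 changes of named members gave 1482 values under the alternatives. Of these 1438 kept direction and side of the threshold, 44 missed the threshold and 0 turned direction. All 18 arrays gave 21 of the 44 misses, and Tnfsf13b and Fas in AML Dox against AML Compound and Tnfrsf18 in LSK Dox against LSK Compound gave the other ones, with adjusted p up to 0.228, 0.185 and 0.0506 by limma. The cause was not tested.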

Other observations

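Ligands and receptors that bind each other can be read side by side in LSK Compound against LSK Control cells, as changes on the log2 scale. These pairs were chosen after their values were seen. For OX40, the ligand Tnfsf4 rose by 5.42 while the receptor Tnfrsf4 was at 0.07 (adjusted p = 0.72, limma), reading 3.54 and 3.72 in LSK Compound cells, against 3.53 to 3.60 in LSK Control cells. For 4-1BB the receptor Tnfrsf9 rose by 4.65 and the ligand Tnfsf9 was at 0.42 (adjusted p = 0.146, limma). For CD30 both rose, the receptor Tnfrsf8 by 3.38 and the ligand Tnfsf8 by 1.12. For TRAIL, the ligand Tnfsf10 rose by 3.75, the death domain receptor Tnfrsf10b by 1.72 and the decoys Tnfrsf23 by 4.32, Tnfrsf22 by 0.75 and Tnfrsf11b by 6.71. For TL1A, the ligand Tnfsf15 rose by 0.40 and its receptor Tnfrsf25 was at 0.17 (adjusted p = 0.317, limma). The ligands of Fas and CD27 were under the filter level on all 17 arrays, so the changes of these receptors were read without a measured partner.

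Fas was called higher in all 4 treatments against their controls and Cd27 lower in all 4. Their changes were 1.69 and -1.52 in AML Dox, 1.31 and -2.82 in AML Compound, 0.50 and -0.85 in LSK Dox and 3.64 and -2.15 in LSK Compound cells. The 2 treatments of a cell type share their control arrays.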
